A study of Mus musculus with 22 samples.

Results

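The genes described here encode the subunits of the mitochondrial oxidative phosphorylation system that are made from nuclear DNA. They were chosen by name: a gene was taken when its symbol began with Ndufa, Ndufb, Ndufc, Ndufs or Ndufv and a number, with Uqcr, with Cox4 to Cox8 or with Atp5, or was Sdha, Sdhb, Sdhc or Sdhd, when the symbol held no hyphen, and when it reached at least 1 TPM in at least 5 of 22 mice. TPM is a transcript level corrected for transcript length and scaled to the same total in every library. The rule gave 82 genes of the 57010 in the table and the 16756 that passed the same limit on low values. Complex I had 36 of them, complex II 4, complex III 8, complex IV 17 and complex V 17. Ndufa4 and its paralog Ndufa4l2 were counted with complex IV, to which the protein of Ndufa4 belongs.

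The samples were isolated pancreatic islets of male mice aged 5.5 weeks, and each library came from 1 mouse. The transcription factor MAFA acts in beta cells, the insulin-producing cells of the islet. The wild-type (WT) mice were compared with mice heterozygous (Het) for the S64F change in MAFA, on a background called C57 and on a background called Mixed, whose strains the labels do not give. On each background there were 5 WT and 6 Het mice.

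Oxidative phosphorylation takes place in the inner mitochondrial membrane. Complex I takes electrons from NADH and complex II takes them from succinate, complex III passes them to cytochrome c, and complex IV passes them on to oxygen. Complexes I, III and IV pump protons, and complex V, the ATP synthase, lets the protons flow back and makes ATP. In beta cells the ATP made from glucose closes potassium channels in the plasma membrane, which leads to calcium entry and insulin release. Most subunits are encoded in the nucleus, and a small set in complexes I, III, IV and V is encoded by mitochondrial DNA.

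Depth per library was unknown, since TPM keeps no read counts. Mafa itself was 441 ± 87.6 TPM (SD, n = 5) in C57 WT, 117 ± 23.2 (n = 6) in C57 Het, 598 ± 143 (n = 5) in Mixed WT and 152 ± 37.1 (n = 6) in Mixed Het. Het islets on both backgrounds also had higher levels of all 7 alpha cell markers listed, whose summed level ranged from 19160 to 57630 TPM in C57 WT, from 71670 to 117700 in C57 Het, from 15930 to 27700 in Mixed WT and from 65730 to 107700 in Mixed Het. The summed level of 8 beta cell markers, Mafa and the insulin genes among them, ranged from 368800 to 448700 TPM in C57 WT, from 321800 to 376100 in C57 Het, from 399000 to 476000 in Mixed WT and from 247900 to 339800 in Mixed Het. The libraries of C57 WT mouse 1, C57 WT mouse 5 and Mixed WT mouse 4 stood apart in the share of TPM from mitochondrially encoded genes (8.09%, 9.76% and 9.76%, against 2.80% to 6.04% in the other 19). In whole islets, fewer cells of a type and less RNA per cell cannot be told apart.

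Markers of other cells were also called between genotypes (limma, adjusted p under 0.05). Of all genes tested, 26.4% were higher and 11.6% lower in C57 Het, and 30.7% and 13.5% in Mixed Het. Of 8 acinar markers, genes of the digestive enzyme-making cells around the islets, 8 were higher in C57 Het (median 1.25) and 2 in Mixed Het (median 0.89). Their summed level was 204 to 369.8 TPM in C57 WT, 275.5 to 1580.0 in C57 Het, 168 to 792 in Mixed WT and 600.1 to 1128 in Mixed Het. Delta and PP cell markers numbered 4 of 6 higher in C57 Het (median 0.78) and 5 of 6 in Mixed Het (median 1.36). Ductal markers numbered 2 of 6 higher in C57 Het, and 5 higher and 1 lower in Mixed Het (median 0.79). Of 7 immune markers, 1 was lower in C57 Het and 7 were higher in Mixed Het (median 0.73). Of 8 mesenchymal markers, 1 was lower in C57 Het and 5 were higher in Mixed Het (median 1.5). In Mixed Het 3 of 5 Schwann cell markers (median 0.57) and 2 of 2 adipocyte markers (median 0.83) were higher, and in C57 0 were called. Of 7 endothelial markers 0 were called in Mixed, and the 1 skeletal muscle marker tested was lower on both backgrounds. The acinar share higher in Mixed (25%) lay below that of all genes. In C57 the ductal share higher (33.3%) and the immune (14.3%) and mesenchymal (12.5%) shares lower lay near those of all genes. With the acinar marker score as a covariate, limma called 6 subunit genes higher and 4 lower in C57 and 60 higher in Mixed, beside the counts without it given below. Over all 16756 genes that fit called 2411 higher and 1122 lower in C57, and 4117 and 1722 in Mixed. The part of the other cell types in the results was not tested.

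The 82 genes together took 0.810% ± 0.0353 (SD, n = 5) of all TPM in C57 WT islets, 0.872% ± 0.0328 (n = 6) in C57 Het, 0.790% ± 0.0636 (n = 5) in Mixed WT and 1.03% ± 0.0662 (n = 6) in Mixed Het. Their mean TPM over the 22 mice ran from 1.84 for Cox6b2 to 448 for Ndufa1, with a median of 84.2. Cox8a (408), Atp5a1 (349) and Cox4i1 (260) were also among the most abundant. Cox6b2 and Cox7a1 lay just inside the limit, each with at least 1 TPM in 21 mice and with means of 1.84 and 2.11 TPM. Of the rows just outside, Cox6c2 came nearest, with at least 1 TPM in 1 mouse and a mean of 0.315. The other 8 rows with a matching name and no hyphen, among them Cox7b2, Cox8b and Cox8c, never reached 1 TPM.

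In C57 islets, 22 of the 82 genes were higher in Het than in WT and 6 were lower (limma on log2(TPM + 1), adjusted p under 0.05 over all 16756 genes). Of all genes tested, 26.4% were higher and 11.6% lower in this comparison, so the members' shares (26.8% and 7.32%) lay near the background. The median difference of the members was 0.05 on the log2(TPM + 1) scale, against 0.08 for all genes. The WT and Het ranges did not overlap for 12 higher and 4 lower members, where 15.9% and 5.04% of all genes were separated in these directions. In Mixed islets, 64 of the 82 were higher in Het and 0 lower (limma; 67 and 0 at an unadjusted p under 0.05), beside a background of 30.7% higher and 13.5% lower. The median difference of the members was 0.37, against 0.10 for all genes, and 39 members had Het values that were all above the WT values, where 17.9% of all genes did.

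The 2 genotype differences share no mice but come from 1 fit with 1 estimate of spread for each gene. Of the 22 members higher in C57 Het and the 64 higher in Mixed Het, 21 were the same genes. The share of all genes higher on both backgrounds is not given here, so this overlap has no background beside it. Another 42 were higher in Mixed Het and not called in C57, Cox6a2 was higher in C57 Het and not called in Mixed, and 12 were called in neither. Atp5k was lower in C57 Het and higher in Mixed Het. The other 5 members that fell in C57 Het (Cox4i2, Ndufa4l2, Ndufb8, Ndufv3 and Ndufb9) were not called in Mixed. Across the 82 genes the 2 differences were correlated (Pearson 0.591, Spearman 0.628), a description in which genes are not independent and share their libraries. The test of the difference between backgrounds (the interaction, limma) called 27 members, all with the larger Het minus WT difference in Mixed (55 and 0 at an unadjusted p under 0.05). Of all genes tested, 4.62% were called in that direction and 2.74% in the opposite one. The difference was larger in Mixed for 76 of the 82 members and for 8805 of the 16756 genes.

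**Figure D1:**
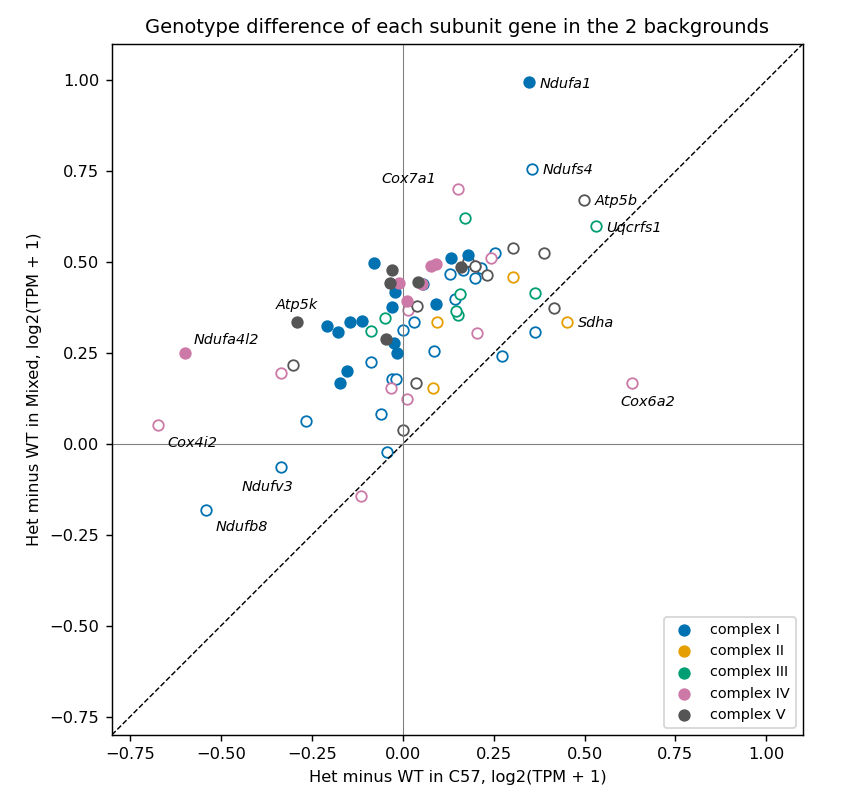
Het minus WT difference of each of the 82 subunit genes on the log2(TPM + 1) scale, in C57 (horizontal axis) and in Mixed islets (vertical axis), coloured by complex. Filled points are the 27 genes called in the test of the difference between backgrounds, the dashed line marks equal differences, and 76 genes lie above it.

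These counts depended on how libraries were scaled. Median-of-ratios scaling moved the median difference of all genes to -0.01 on both backgrounds (from 0.08 in C57, 0.10 in Mixed). Under it the members numbered 8 higher and 12 lower in C57 (median -0.07) and 40 higher and 2 lower in Mixed (median 0.23). The interaction called 12 members, all larger in Mixed, beside 778 of all genes in that direction and 973 in the opposite one. Quantile normalization gave 10 higher and 12 lower in C57 and 43 and 0 in Mixed, and rescaling to a total that leaves out 13 very abundant genes (each over 1% of a library) gave 8 and 14 in C57 and 43 and 2 in Mixed. Over all 16756 genes, higher and lower calls numbered 3293 and 3300 in C57 and 3663 and 3751 in Mixed under median-of-ratios scaling. They numbered 3680 and 2875, then 4221 and 3338, under quantile normalization, and 3192 and 3184, then 3655 and 3494, with the reduced total. The sign of the members' median in C57 therefore differed between scalings. That median lay below the all-gene median in the main fit and under each of these 3. In Mixed the members' median was positive and above the all-gene median under each. Without the 3 libraries of high mitochondrial share, an alternative added after seeing the data, C57 had 12 higher and 2 lower, Mixed 63 and 1, and the interaction called 7. Over all genes that fit called 2836 higher and 1023 lower in C57, 5039 and 2121 in Mixed, and 236 and 183 in the interaction. In C57 the count was 14 higher and 7 lower without Het mouse 2, and 22 higher and 10 lower without WT mouse 2.

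**Figure D2:**
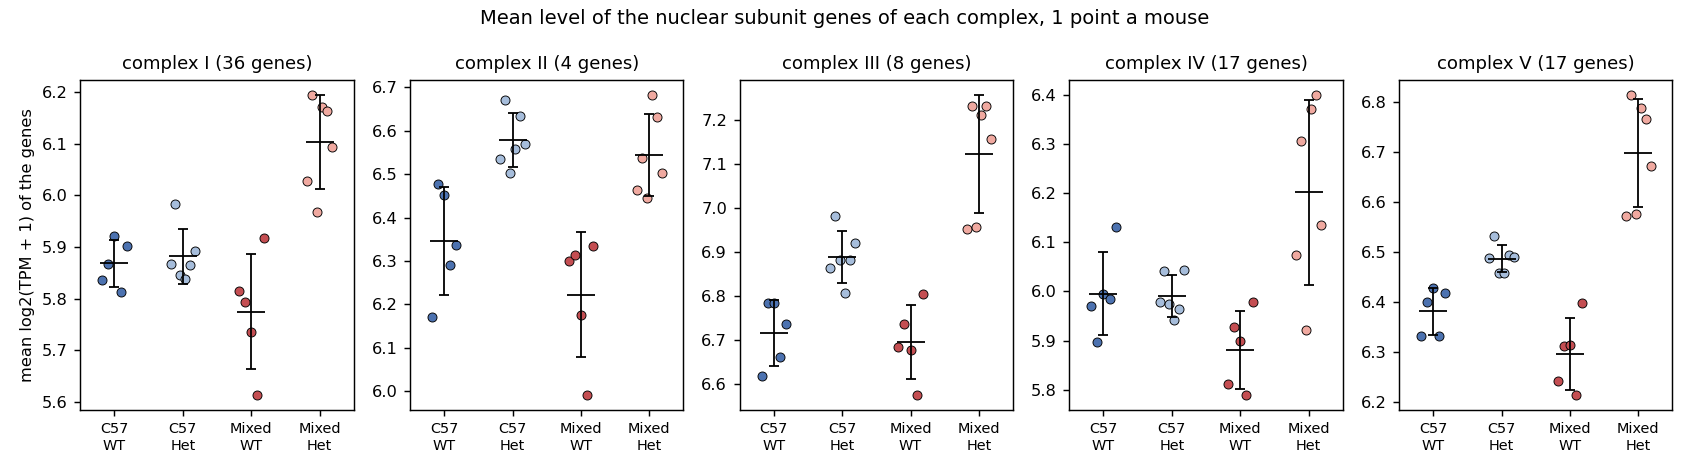
Mean log2(TPM + 1) of the nuclear subunit genes of each complex (vertical axes, which do not start at 0), 1 point a mouse, with the group mean and SD as bars. In complex III all 6 Mixed Het mice lie between 6.95 and 7.23, above the Mixed WT range of 6.58 to 6.81, and in complex I the 2 C57 groups overlap.

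Promoter sequence was looked at because 64 members moved in 1 direction in Mixed islets. RefSeq (GRCm38.p6) windows of 250 bases before to 50 after a gene start were found for 67 of the 82 genes, 72 windows in all. The letters CGCNTGCGC, part of the site of the factor NRF1, stood on either strand in 29.2% of these windows and in 6.25% of the 32851 windows of all genes. CCGGAAG, an ETS site as bound by GABPA, was in 23.6% against 8.86%. AAGATGGC, a YY1 site, was in 13.9% against 2.75%, and AAGGTCA, a site of the estrogen-related receptors, in 11.1% against 4.72%. CCAAT was in 41.7% against 37.4%. TGCTGAC, the core of a MAF site, was in 0 of the 72 windows and in 4.67% of all, which says only that these letters are not in these windows. No pair of these motifs shares all its letters, but matches can overlap. The windows below, 1 for each complex and 5′ to 3′, were picked after the search to show the NRF1 letters, and capitals mark every match to NRF1, ETS, YY1, estrogen-related receptor and MAF letters. They are Ndufb4 (chr16:37654319-37654618, minus strand), Sdha (chr13:74350191-74350490, minus strand), Uqcrc1 (chr9:108936398-108936697, plus strand), Cox6a1 (chr5:115348909-115349208, minus strand) and Atp5k (chr5:108434350-108434649, minus strand).
Ndufb4: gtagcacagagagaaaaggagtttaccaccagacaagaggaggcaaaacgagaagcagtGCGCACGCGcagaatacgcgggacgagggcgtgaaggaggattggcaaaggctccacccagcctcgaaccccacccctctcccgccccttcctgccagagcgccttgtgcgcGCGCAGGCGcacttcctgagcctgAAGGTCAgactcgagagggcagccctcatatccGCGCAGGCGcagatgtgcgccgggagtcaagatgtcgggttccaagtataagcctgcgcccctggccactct
Sdha: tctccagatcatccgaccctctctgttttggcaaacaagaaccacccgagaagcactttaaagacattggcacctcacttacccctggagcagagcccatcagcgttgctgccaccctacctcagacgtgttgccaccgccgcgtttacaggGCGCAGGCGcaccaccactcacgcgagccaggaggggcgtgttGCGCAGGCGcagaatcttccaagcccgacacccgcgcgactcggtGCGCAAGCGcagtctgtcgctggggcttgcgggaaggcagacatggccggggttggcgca
Uqcrc1: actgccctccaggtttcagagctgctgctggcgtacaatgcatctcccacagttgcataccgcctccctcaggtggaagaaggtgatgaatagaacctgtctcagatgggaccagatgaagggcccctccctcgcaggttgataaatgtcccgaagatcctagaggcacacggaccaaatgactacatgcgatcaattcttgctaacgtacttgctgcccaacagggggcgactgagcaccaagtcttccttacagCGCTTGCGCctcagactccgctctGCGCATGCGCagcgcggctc
Cox6a1: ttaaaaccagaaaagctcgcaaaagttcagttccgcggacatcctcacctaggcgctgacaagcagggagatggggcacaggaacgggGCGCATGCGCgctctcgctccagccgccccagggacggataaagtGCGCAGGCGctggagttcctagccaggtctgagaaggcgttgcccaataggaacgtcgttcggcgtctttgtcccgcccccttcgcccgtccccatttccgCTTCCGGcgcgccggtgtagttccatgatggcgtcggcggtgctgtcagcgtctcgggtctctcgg
Atp5k: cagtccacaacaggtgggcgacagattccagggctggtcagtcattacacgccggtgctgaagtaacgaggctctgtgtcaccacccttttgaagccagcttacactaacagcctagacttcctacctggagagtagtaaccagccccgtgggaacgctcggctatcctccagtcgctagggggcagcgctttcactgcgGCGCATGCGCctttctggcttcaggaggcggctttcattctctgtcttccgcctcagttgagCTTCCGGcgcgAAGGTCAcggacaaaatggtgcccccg

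In these windows the NRF1 letters occur at 3 places in Ndufb4 and Sdha, and Atp5k joins them to ETS letters and estrogen-related receptor letters just after the start. The 20 members with NRF1 letters had a median Het minus WT difference of 0.09 in C57 and 0.38 in Mixed, and the 47 without them had 0.04 and 0.39. In Mixed, 18 of the 20 and 38 of the 47 were called higher. A match to letters is a description of sequence, and binding was not measured.

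Complex I, the entry point for NADH, had 8 of 36 subunits higher (22.2%) and 3 lower (8.33%) in C57 Het, beside 26.4% and 11.6% of all genes. In Mixed Het 29 were higher (80.6%) and 0 lower, beside 30.7% and 13.5% of all genes. The differences spanned -0.54 to 0.36 in C57, and in Mixed they spanned -0.18 to 1.0. Ndufa1, a small X-linked accessory subunit needed for assembly of the membrane arm, was the most abundant member. Its values in C57 WT were 296, 311, 373, 333 and 369 TPM, and C57 Het ran from 340 to 487 with a median of 434.5. Mixed WT values were 319, 318, 345, 315 and 345 TPM, and Mixed Het ran from 534.5 to 780 with a median of 658. All 6 Mixed Het mice were above all other mice, while the C57 groups overlapped. The difference was 0.35 in C57 (SE 0.10, limma adjusted p = 0.0101) and 1.0 in Mixed (SE 0.10, limma adjusted p = 1.33e-07). The differences themselves differed by 0.65 (SE 0.14, limma adjusted p = 0.0108).

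Ndufs4, an accessory subunit of the NADH-oxidizing arm whose loss causes a severe mitochondrial disease, was 24.8, 28.5, 28.8, 24.4 and 25.1 TPM in C57 WT and 30.7 to 42.4 (median 33.3) in C57 Het. In Mixed it was 22.7, 26.2, 23.6, 19.6 and 25.4 TPM in WT and 33.7 to 45.0 (median 41.2) in Het. WT and Het did not overlap on either background. Ndufs4 rose by 0.35 in C57 (SE 0.09, limma adjusted p = 0.00371) and by 0.76 in Mixed (SE 0.09, limma adjusted p = 8.90e-07). The interaction of 0.40 missed the threshold (limma adjusted p = 0.0531).

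Ndufa13, the accessory subunit also known as GRIM19, and Ndufa3, a small accessory subunit, were called in Mixed and not in C57. Ndufa13 was 132, 105, 116, 99.97 and 129 TPM in C57 WT and 105 to 114 (median 109.6) in C57 Het. In Mixed WT it was 98.6, 95.3, 98.7, 99.1 and 109.7 TPM, below the Het range of 124 to 161 (median 145). It rose by 0.50 in Mixed (limma adjusted p = 2.06e-05), the C57 difference was -0.08 (limma adjusted p = 0.427), and the interaction was 0.58 (SE 0.11, limma adjusted p = 0.0043). Ndufa3 was 66.4, 60.6, 62.5, 68.4 and 78.6 TPM in C57 WT and 52.2 to 63.3 (median 58.2) in C57 Het. Its Mixed WT values were 76.6, 79.0, 64.2, 59.2 and 60.8 TPM and its Mixed Het values 73.0 to 93.4 (median 85.4). The groups overlapped on both backgrounds. Ndufa3 rose by 0.33 in Mixed and its C57 difference was -0.21, with an interaction of 0.53 (SE 0.12, limma adjusted p = 0.0144) that was lost without the 3 libraries of high mitochondrial share (0.42, limma adjusted p = 0.0881).

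The conserved core subunits of complex I carry the flavin and the iron-sulfur clusters. Ndufs1, the largest iron-sulfur subunit, rose in both backgrounds, by 0.36 in C57 and 0.31 in Mixed. Ndufv1, Ndufv2, Ndufs3, Ndufs7 and Ndufs8 rose in Mixed, by 0.18 (Ndufs8) to 0.48 (Ndufv2), and were not called in C57, where they lay between -0.15 and 0.17. When all libraries were centred on the members' own mean, Ndufs7 and Ndufs8 were called lower in Mixed Het (-0.15 and -0.17, limma adjusted p = 0.0392 and 0.0182).

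The 3 complex I subunits that fell in C57 Het were accessory ones. Ndufb8, of the membrane arm, was 5.41, 4.35, 4.53, 5.49 and 6.08 TPM in C57 WT and 3.005 to 3.48 (median 3.20) in C57 Het, without overlap. It fell by 0.54 on the log2(TPM + 1) scale (SE 0.10, limma adjusted p = 0.000359), and in Mixed its difference was -0.18 (limma adjusted p = 0.156). Ndufb8 overlaps the annotated gene Gm20538 on the same strand, and how reads were shared between them is not given in the sources used here. Ndufv3, a small subunit beside the NADH site, was 46.4, 42.0, 40.3, 40.9 and 49.0 TPM in C57 WT, all above the Het range of 32.1 to 36.1 (median 34.9), and fell by 0.33 (SE 0.06, limma adjusted p = 0.00035). Ndufb9, of the membrane arm, fell by 0.27, from 31.6 to 39.5 TPM in C57 WT to 25.6 to 29.3 in C57 Het, again without overlap of the groups. Like Ndufb8, the gene Ndufb9 overlaps an annotated gene on the same strand, Gm49356. Ndufv3 differed by -0.06 and Ndufb9 by 0.06 in Mixed, neither called.

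**Figure D3:**
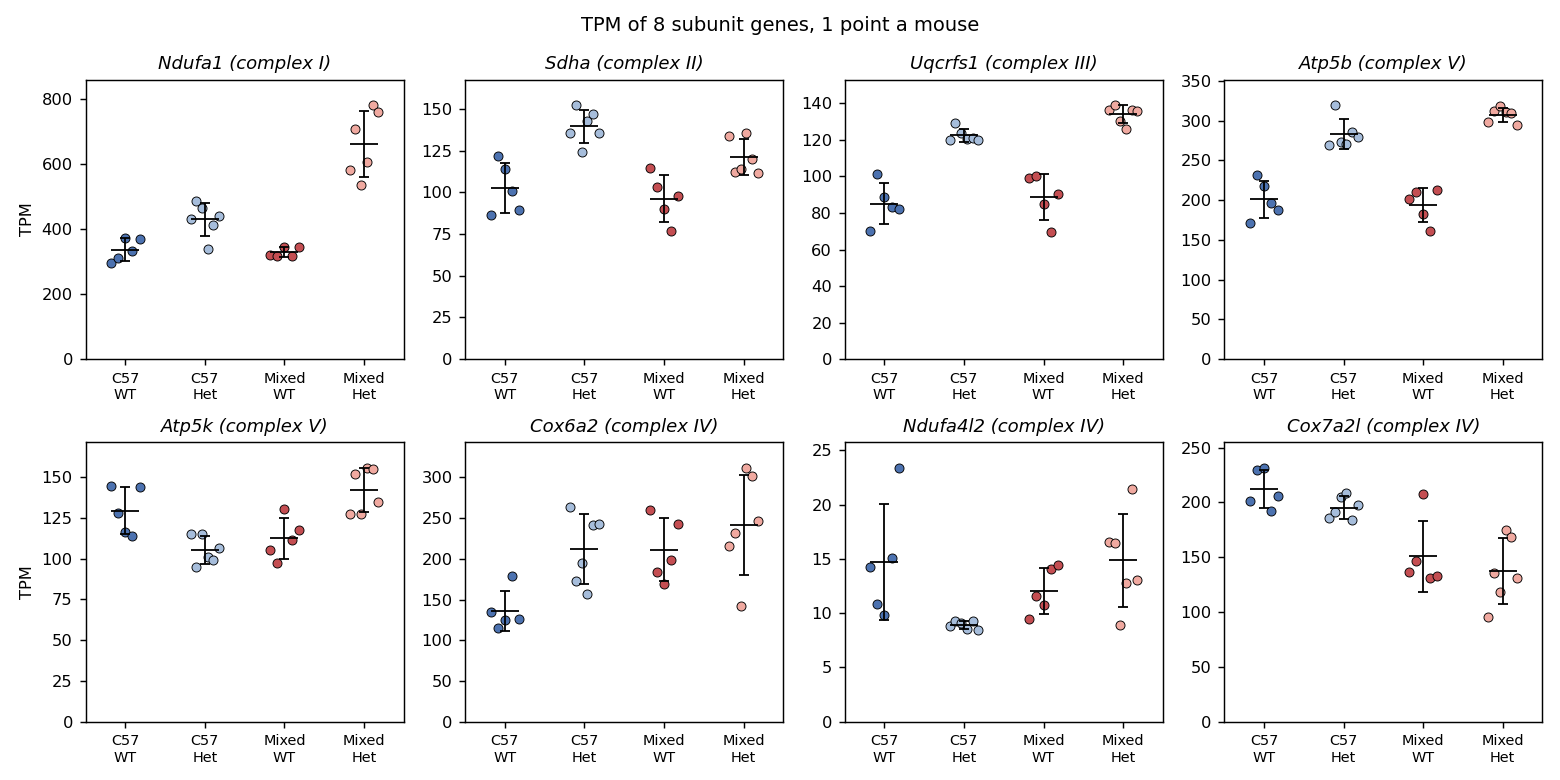
TPM (vertical axes, from 0) of 8 subunit genes, 1 point a mouse, with the group mean and SD as bars. Uqcrfs1 and Atp5b are higher in every Het than in every WT mouse of the same background, Ndufa1 is highest in Mixed Het, Atp5k is lower in C57 Het and higher in Mixed Het, and Cox7a2l is lower in every Mixed Het than in every C57 Het mouse.

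Complex II, succinate dehydrogenase, is also an enzyme of the citric acid cycle and has no mitochondrially encoded subunit. Sdha, the flavoprotein that oxidizes succinate, was 86.7, 122, 114, 101 and 89.5 TPM in C57 WT and 124 to 152 (median 139.5) in C57 Het. It was 115, 103, 89.8, 76.6 and 97.6 TPM in Mixed WT and 112 to 136 (median 117) in Mixed Het. The C57 groups did not overlap and the Mixed groups did. Sdha rose by 0.45 in C57 (SE 0.10, limma adjusted p = 0.00129) and by 0.34 in Mixed (SE 0.10, limma adjusted p = 0.00865), and the C57 call was lost with mitochondrial share as a covariate (0.26, limma adjusted p = 0.078). Sdhd, a membrane anchor, was 155, 170, 178, 155 and 170 TPM in C57 WT and 198 to 209 (median 204.5) in C57 Het. In Mixed it was 144, 132, 127, 109.8 and 142 TPM in WT and 149.9 to 213 (median 181) in Het. Groups were apart on both backgrounds, with rises of 0.30 in C57 (limma adjusted p = 0.00371) and 0.46 in Mixed (limma adjusted p = 5.35e-05). Sdhb, the iron-sulfur subunit, rose in Mixed by 0.33 and differed by 0.09 in C57, and Sdhc, the second anchor, was called in neither (0.08 and 0.15). The interaction called 0 of the 4 subunits of complex II by limma (1 at an unadjusted p under 0.05), with values from -0.12 to 0.24.

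Complex III, cytochrome c reductase, was the one complex with every nuclear subunit of the rule (8 of 8) higher in Mixed Het. In C57 Het, 3 of the 8 rose (37.5%, beside 26.4% of all genes). Uqcrfs1, the Rieske iron-sulfur protein, was 70.2, 101, 88.9, 83.1 and 81.9 TPM in C57 WT and 119.8 to 129 (median 121) in C57 Het. It was 99.3, 100.1, 85.1, 69.6 and 90.6 TPM in Mixed WT and 126 to 139 (median 136) in Mixed Het. Every Het mouse was above every WT mouse on both backgrounds, and the rises were 0.53 in C57 (SE 0.08, limma adjusted p = 7.26e-05) and 0.60 in Mixed (SE 0.08, limma adjusted p = 8.68e-06). The structural core proteins rose on both backgrounds too, Uqcrc2 by 0.36 and 0.42 and Uqcrc1 by 0.15 and 0.36. Uqcr10, a small accessory subunit, was 156, 149, 156, 143 and 175 TPM in C57 WT and 149 to 187 (median 178) in C57 Het, which overlapped. Its Mixed WT values were 129, 139, 133.5, 128 and 160.1 TPM and its Mixed Het values 156 to 262 (median 228), which also overlapped. It rose by 0.62 in Mixed (SE 0.11, limma adjusted p = 8.39e-05) and differed by 0.17 in C57 (limma adjusted p = 0.212). By limma the interaction called 0 of the 8 (5 at an unadjusted p under 0.05), and its values ran from 0.05 to 0.45.

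Complex IV, cytochrome c oxidase, had the widest spread of differences of the 5 complexes in C57, from -0.67 to 0.63. There 3 of 17 subunits were higher (17.65%) and 2 lower (11.8%), beside 26.4% and 11.6% of all genes. In Mixed 10 of the 17 rose (58.8%, beside 30.7% of all genes), and the differences spanned -0.14 to 0.70, a narrower span than in complex I. Several of its subunits exist as a widely expressed form and a tissue-restricted form. Cox6a2, the heart and skeletal muscle form, was abundant in these islets. It was 135, 115, 124, 179 and 127 TPM in C57 WT, 157 to 264 (median 219) in C57 Het, 260.3, 184, 169, 199 and 242 in Mixed WT, and 142 to 312 (median 239) in Mixed Het. The groups overlapped on both backgrounds. It rose in C57 by 0.63 (SE 0.18, limma adjusted p = 0.00825), a call lost with the acinar marker score as a covariate (0.63, limma adjusted p = 0.0507) and without the 3 libraries of high mitochondrial share (0.60, limma adjusted p = 0.0567). Its partner Cox6a1 differed by -0.01 in C57 and rose by 0.44 in Mixed. Of the summed TPM of the pair, Cox6a2 made up 37.1% ± 4.94 (SD, n = 5) in C57 WT, 47.9% ± 5.26 (n = 6) in C57 Het, 48.3% ± 4.98 (n = 5) in Mixed WT and 43.6% ± 5.85 (n = 6) in Mixed Het. Of 6 skeletal muscle markers, 5 (Myh4, Myh1, Ckm, Tnnt3 and Mb) were below 1 TPM in every library. Cox6a2 overlaps the gene Itgad on the opposite strand, and whether reads were counted by strand is not given in the sources used here.

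Cox4i2, a form of the regulatory subunit known from lung and from responses to low oxygen, was 8.30, 4.69, 5.89, 6.60 and 13.5 TPM in C57 WT and 3.73 to 4.82 (median 4.28) in C57 Het. Ndufa4l2, the hypoxia-induced paralog of Ndufa4, was 14.2, 10.8, 9.87, 15.1 and 23.4 TPM in C57 WT and 8.47 to 9.31 (median 8.98) in C57 Het. WT mouse 5 was highest for both genes, and the ranges overlapped for Cox4i2 only. Cox4i2 fell by 0.67 (SE 0.19, limma adjusted p = 0.00862) and Ndufa4l2 fell by 0.60 (SE 0.18, limma adjusted p = 0.0138). Without the 3 libraries of high mitochondrial share, WT mouse 5 among them, both calls were lost (-0.35 with limma adjusted p = 0.153, and -0.36 with limma adjusted p = 0.173). Endothelial markers moved beside them: 4 of 7 were lower in C57 Het, and their summed level ran from 319.5 to 801 TPM in C57 WT and from 309.7 to 379 in C57 Het. The part of endothelial cells was not tested. In Mixed, Cox4i2 was 5.34 to 7.31 TPM in WT and 3.84 to 9.09 in Het, a difference of 0.05. Ndufa4l2 was 9.47, 11.6, 10.8, 14.0 and 14.5 TPM in Mixed WT and 8.94 to 21.5 (median 14.8) in Mixed Het, a difference of 0.25. The interaction for Ndufa4l2 was the largest of all members, 0.85 (SE 0.26, limma adjusted p = 0.0488), and was lost under several alternatives, among them no filter on low values (limma adjusted p = 0.105) and the removal of most single mice.

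The widely expressed forms moved together in Mixed. Cox4i1, Cox5a, Cox5b, Cox6a1, Cox6b1, Cox7a2, Cox7b, Cox7c and Ndufa4 rose there by 0.31 to 0.51, while Cox6c (0.15) and Cox8a (0.12) were not called. In C57, Cox5a rose by 0.20 and Cox7a2 by 0.24, and the others of this group lay between -0.03 and 0.20 and were not called. Cox4i1, the main form of the regulatory subunit, was 217 to 271 TPM in C57 WT, 246 to 277 in C57 Het, 209.5 to 235 in Mixed WT and 265 to 334 in Mixed Het, with Mixed groups apart and an interaction of 0.39 (limma adjusted p = 0.0246). Cox7a1, a muscle form at the lower limit of level, was 0.668, 1.75, 1.16, 1.25 and 1.15 TPM in Mixed WT and 1.64 to 4.77 (median 2.30) in Mixed Het, which overlapped. Its rise of 0.70 (SE 0.20, limma adjusted p = 0.00835) was lost with mitochondrial share as a covariate (0.56, limma adjusted p = 0.175), and mesenchymal markers rose in the same mice (5 of 8, summed level 138 to 209.6 TPM in WT and 132 to 561 in Het), whose part was not tested. Cox6b2, the testis form, differed by -0.33 in C57 and 0.19 in Mixed and was not called.

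In complex V, the ATP synthase, 6 of 17 subunits rose (35.3%) and 1 fell (5.88%) in C57 Het, beside 26.4% and 11.6% of all genes. In Mixed Het 14 rose (82.35%), beside 30.7% of all genes. Atp5b, the catalytic beta subunit, was 172, 231, 218, 196 and 188 TPM in C57 WT and 269 to 320 (median 276) in C57 Het. In Mixed it was 201, 210, 183, 162 and 212 TPM in WT and 295 to 318 (median 310.2) in Het. Atp5a1, the alpha subunit, was 244, 347, 322, 281 and 272 TPM in C57 WT and 374 to 418 (median 386) in C57 Het, and 321, 339, 282, 267 and 307 in Mixed WT and 376 to 423 (median 391) in Mixed Het. Neither gene overlapped between genotypes on either background. Atp5b rose by 0.50 in C57 (SE 0.08, limma adjusted p = 5.59e-05) and 0.67 in Mixed (SE 0.08, limma adjusted p = 6.94e-07), and Atp5a1 by 0.42 (SE 0.08, limma adjusted p = 0.000332) and 0.37 (SE 0.08, limma adjusted p = 0.000576). Atp5c1, the gamma subunit that turns inside the head, rose by 0.30 and 0.54, and Atp5pb, of the stalk that holds the head still, by 0.39 and 0.52. The 3 genes for the same proton-carrying c subunit, Atp5g1, Atp5g2 and Atp5g3, rose in Mixed by 0.48, 0.46 and 0.49, and of them Atp5g2 rose in C57 (0.23). Their coding sequences are alike in part, and how reads between them were split is not given in the sources used here.

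Atp5k, the e subunit of the membrane part where synthase dimers join, was the one member called in opposite directions. It was 144, 128, 117, 114 and 144 TPM in C57 WT and 94.9 to 115 (median 104) in C57 Het. In Mixed WT it was 105, 97.5, 130.2, 112 and 118 TPM, and in Mixed Het 127 to 156 (median 143.5). The ranges overlapped slightly on both backgrounds. Atp5k fell by 0.29 in C57 (SE 0.09, limma adjusted p = 0.0114) and rose by 0.34 in Mixed (SE 0.09, limma adjusted p = 0.00351), with an interaction of 0.63 (SE 0.12, limma adjusted p = 0.00557). The fall in C57 was lost without the 3 libraries of high mitochondrial share (-0.18, limma adjusted p = 0.178) and with either covariate. Atp5d, Atp5e and Atp5l were called in neither genotype comparison.

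The test of the difference between backgrounds called 15 subunits of complex I, 6 of complex IV and 6 of complex V. Besides Ndufa4l2, Ndufa1, Atp5k, Ndufa13 and Ndufa3, the larger values were those of Atp5g1 (0.51), Ndufa2 (0.49), Ndufb7 (0.48) and Atp5j2 (0.48). Single mice moved the count: it was 16 without C57 WT mouse 5, 17 without C57 Het mouse 1, 16 without C57 Het mouse 4 and 16 without C57 Het mouse 5. It was 17 without Mixed WT mouse 2, 17 without Mixed WT mouse 3, 15 without Mixed Het mouse 2 and 15 without Mixed Het mouse 5. Over all single removals it ran from 15 to 36, each time with every call larger in Mixed. Shorter genes had larger interaction values: the Spearman correlation with exonic length was -0.46 over the 82 members and -0.23 over 16086 genes with a length, a description with no test. RNA quality was not given in the sources used here, and its part was not tested.

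Between backgrounds, WT islets differed in 6 members, with 2 higher in Mixed and 4 lower, beside a background of 6.30% higher and 4.99% lower. Without the 3 libraries of high mitochondrial share, limma called 0 members (2 higher and 7 lower at an unadjusted p under 0.05). The count was 3 without C57 WT mouse 1, C57 WT mouse 3 or C57 WT mouse 5, and 2 without Mixed WT mouse 1. Het islets differed in 33 members that were higher in Mixed and 1 that was lower, beside 13.3% and 7.13% of all genes. That count was 21 without Mixed Het mouse 2 and 22 without Mixed Het mouse 5. Under quantile normalization it was 17 higher and 3 lower, and with the total that leaves out abundant genes 15 and 2. Over all 16756 genes, 1882 were higher and 2041 lower under quantile normalization, and 1815 and 1992 with that total. Complex I gave 17 of the 33, complexes IV and V 6 each, complex III 3 and complex II 1. The background comparisons share mice with the genotype comparisons, so their values are given side by side only.

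Cox7a2l, the factor that joins complexes III and IV into supercomplexes, was lower in Mixed on both genotypes. It was 201, 229, 232, 193 and 206 TPM in C57 WT, 184 to 209 (median 195) in C57 Het, 136, 147, 208, 131 and 133 in Mixed WT and 95.3 to 175 (median 133.5) in Mixed Het. Het groups did not overlap, and in WT Mixed mouse 3 lay within the C57 range. Cox7a2l was lower in Mixed by -0.50 in WT (SE 0.14, limma adjusted p = 0.0178) and by -0.53 in Het (SE 0.12, limma adjusted p = 0.00407). Genotype differences of Cox7a2l were -0.12 in C57 and -0.14 in Mixed, not called. Sdhd (-0.34), Ndufa7 (-0.34) and Atp5h (-0.25) were also lower in Mixed WT than in C57 WT. The Sdhd call was lost with the compared samples alone (limma adjusted p = 0.0524). The Ndufa7 call was lost under median-of-ratios scaling (limma adjusted p = 0.0654) and without most single mice, such as C57 WT mouse 1 (limma adjusted p = 0.0782). Cox6a2 was higher in Mixed WT (0.63), a call lost without Mixed WT mouse 1 (0.55, limma adjusted p = 0.0822) and without several other single mice.

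Genes around the respiratory chain were taken from fixed lists and read against the background shares above. Of 12 mitochondrially encoded subunits tested, 0 rose and 5 fell in C57 Het (limma, median -0.59), and 0 rose and 8 fell in Mixed Het (median -0.93), with 7 and 8 lower and 0 higher at an unadjusted p under 0.05. mt-Co1, a catalytic subunit of complex IV, fell by 0.67 in C57 and by 0.85 in Mixed, so it moved against the nuclear subunits of its complex, most of which rose in Mixed. The WT libraries of high mitochondrial share are among those compared here. mt-Co2, mt-Co3 and mt-Atp6 were uneven between mice of 1 group, with mt-Atp6 at 10.8 ± 23.5 TPM (SD, n = 5) in C57 WT. Assembly factors of complex I numbered 3 of 19 higher and 2 lower in C57 and 7 higher and 1 lower in Mixed, and those of complex IV 6 of 24 higher and 1 lower, then 11 higher. Higd1a, a small inner-membrane protein induced by low oxygen, rose by 0.91 and 1.65. Lyrm7, which helps insert the Rieske protein, fell by 0.59 in Mixed and differed by 0.21 in C57.

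Citric acid cycle and pyruvate dehydrogenase genes numbered 8 of 16 higher in C57 Het and 9 of 16 higher in Mixed Het, with 0 lower on either (limma; 0 and 1 lower at an unadjusted p under 0.05). Cs, citrate synthase, rose by 0.55 and 0.57, and Dlat, of pyruvate dehydrogenase, by 0.54 and 0.47. Of 14 regulators of mitochondrial biogenesis, 7 were higher and 1 lower in C57, and 6 higher and 2 lower in Mixed. Ppargc1a, the coactivator PGC-1 alpha, rose by 1.21 (SE 0.15, limma adjusted p = 2.78e-06) and 0.98 (SE 0.15, limma adjusted p = 1.68e-05). Esrra, the estrogen-related receptor alpha, rose by 0.33 and 0.44, and Gabpa by 0.47 and 0.34. Gabpa overlaps the member Atp5j on the opposite strand, and whether reads were counted by strand is not given in the sources used here. Nrf1 fell by 0.20 in C57 and differed by -0.01 in Mixed. Cytochrome c itself (Cycs) rose by 0.45 and 0.73, while Cyc1, the cytochrome c1 subunit of complex III that the name rule does not reach, fell by 0.18 in C57 and differed by 0.11 in Mixed.

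**Figure D4:**
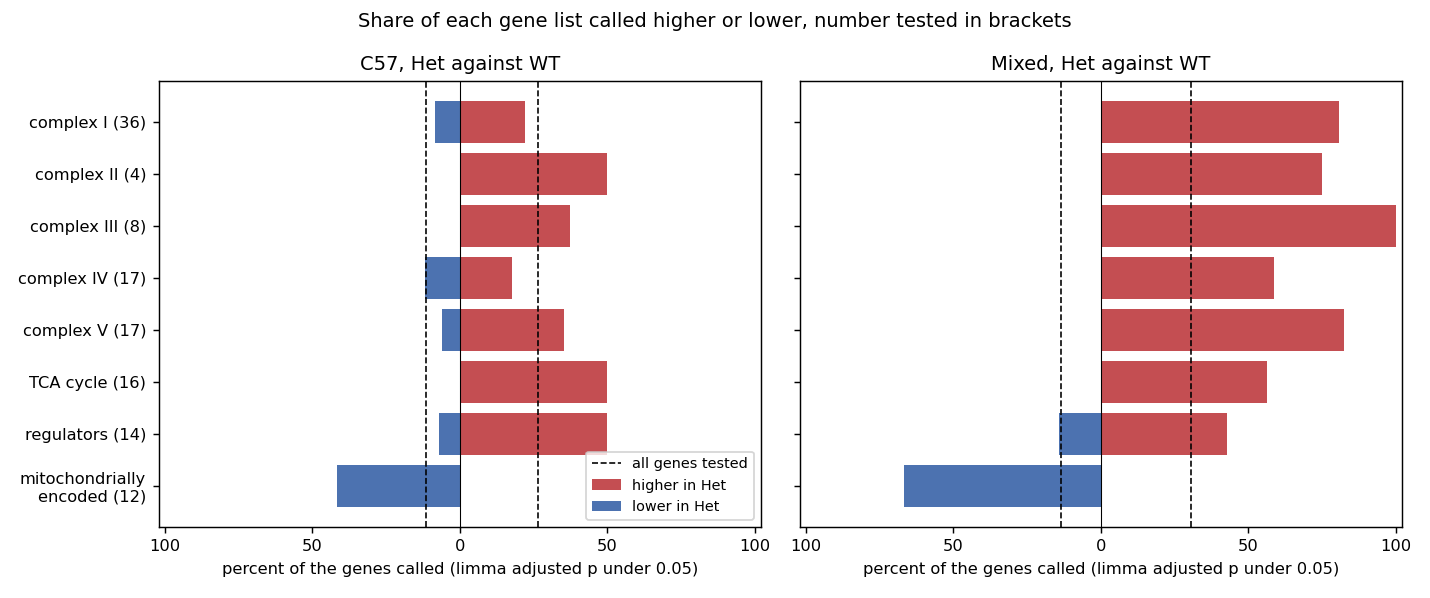
Percent of the genes of each list called higher (right) or lower (left) in Het than in WT by limma, in C57 and in Mixed islets, with the number tested in brackets. Dashed lines mark the shares over all 16756 genes: the nuclear complexes exceed the line for higher genes in Mixed, and the mitochondrially encoded genes lie to the left on both backgrounds.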

How the data were processed

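Islet poly(A) RNA of 22 mice was measured by RNA sequencing, with each library from 1 mouse. The authors deposited TPM per Ensembl gene in 22 columns, per the file headers, each summing to 1000000. STAR 2.7.10b, MultiQC 1.7 and mm39 are named per the submitters' processing notes; the counting tool, annotation and strand setting are not given in the sources used here. Replicate numbers only name a mouse.

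Tests used log2(TPM + 1), a scale on which changes of genes at low level appear smaller than they are. Genes with at least 1 TPM in at least 5 mice (16756) entered 1 limma 3.58.1 model in R 4.3.3 (lmFit, eBayes with trend) of the 4 group means over 22 mice, with Benjamini-Hochberg adjustment over all of them and a threshold of 0.05. Every adjusted p is from this fit or, where named, an alternative. The scripts were tested on simulated data. Genes named with values are the largest called changes of each comparison, tissue-restricted isoforms with partners, core subunits and the most abundant of each complex; other members named were chosen after their values were seen, and 1 member that counts in the totals is not reported singly here. The members and gene lists were chosen with earlier results of these data known. Exonic lengths and overlaps came from GENCODE M21 by gene ID, and promoter windows from RefSeq, GRCm38.p6. Of the 82 members, 39 overlap another gene, 31 of them on the opposite strand, where reads of both cannot be told apart without strand. The overlap is named above for only some of these 39. Library numbers in the labels follow the groups, so their order cannot be told apart from the groups.

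The alternatives were a pseudocount of 0.1, no filter, a mean TPM of at least 5, 3 other scalings, centring on the members, the compared samples alone, eBayes without trend, sample weights, an acinar marker score as covariate, an adjusted p under 0.01, and each replicate left out in turn. Leaving out the 3 libraries of highest mitochondrial share and using that share as covariate were chosen after seeing the data.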

Additional observations from a re-analysis of the deposited data

Results flagged for a closer look

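Some values stood apart from the other mice of their group by more than Dixon's 95% limit, which chance alone passes in about 1 in 20 groups; 7 of the 100 groups examined (25 measures) held one. C57 Het mouse 2 was high for Atp5b (320 TPM), for Ndufs4 (42.4 TPM) and for the mean level of complex I (5.98 on the log2(TPM + 1) scale). C57 Het mouse 3 was high for Cox6b2 (2.21 TPM), and C57 Het mouse 4 was low for Uqcr10 (149 TPM). Mixed WT mouse 3 was high for Cox7a2l (208 TPM), and Mixed WT mouse 5 was high for Ndufa13 (110 TPM).

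By the interaction test of limma, 27 of the 82 members had a genotype difference that was larger in Mixed than in C57. On the log2(TPM + 1) scale the gap was 0.85 for Ndufa4l2 and 0.648 for Ndufa1, the small X-linked subunit of complex I. Among the other complex I subunits it was 0.578 for Ndufa13, 0.533 for Ndufa3, 0.486 for Ndufa2, 0.482 for Ndufb7, 0.452 for Ndufa5, 0.44 for Ndufc2 and 0.407 for Ndufs6. It was 0.379 for Ndufb10, 0.354 for Ndufs7, 0.342 for Ndufa11, 0.339 for Ndufa12, 0.3 for Ndufv1, 0.295 for Ndufb11 and 0.268 for Ndufs3. In complex IV it was 0.455 for Cox6a1, 0.41 for Cox6b1, 0.403 for Cox7c, 0.387 for Cox4i1 and 0.382 for Cox5b. In complex V it was 0.625 for Atp5k, 0.509 for Atp5g1, 0.479 for Atp5j2, 0.403 for Atp5j, 0.334 for Atp5h and 0.327 for Atp5g3.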

How the results depend on the processing

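The limma fit gave 28 members called for genotype in C57, 64 in Mixed, 27 in the interaction, 6 between WT backgrounds and 34 between Het backgrounds. Among the called members, Ndufs7 and Ndufs8 were called in the opposite direction under 1 alternative, centring on the members (-0.15 and -0.17 in Mixed), and no other was under any alternative run. Over all 16756 genes the C57 genotype calls moved too, from 6362 to 3533 with the acinar covariate and 4002 at an adjusted p under 0.01. They were 3859 without the 3 libraries of high mitochondrial share and 2383 with that share as covariate. Counts of members moved by over 1.5 times as follows. C57 genotype: 10 with the acinar covariate, 16 at an adjusted p under 0.01, 14 without the 3 libraries of high mitochondrial share and 6 with that share as covariate; the median was -0.069 with median-of-ratios scaling, -0.060 with quantile normalization and -0.064 with the total without abundant genes. Mixed genotype: 42 with median-of-ratios scaling and 24 when centred on the members. The median was 0.23, 0.24 and 0.24 under the same 3 scalings and 0.015 when centred. Over all genes the Mixed calls numbered 7395 in the main fit, 7414 with median-of-ratios scaling and 8040 when centred. Interaction: 15 with no filter, 12 with median-of-ratios scaling, 5 when centred and 51 with sample weights. The count was 4 at an adjusted p under 0.01 and 7 without the 3 libraries, with a median of 0.016 when centred. Over all genes the interaction calls numbered 1233 in the main fit. They were 714 with no filter (37378 genes tested), 1751 with median-of-ratios scaling and 3711 when centred. They were 2628 with sample weights, 245 at an adjusted p under 0.01 and 419 without the 3 libraries. Between WT backgrounds: 3 with no filter, 12 with quantile normalization, 3 with the compared samples alone and 3 with the acinar covariate. The count was 1 at an adjusted p under 0.01, and the median was -0.020 when centred. Without the 3 libraries limma called 0 members, with 2 higher and 7 lower at an unadjusted p under 0.05. Over all genes the calls between WT backgrounds numbered 1892 in the main fit, 1741 with no filter and 2621 with quantile normalization. They were 831 with the compared samples alone, 1463 with the acinar covariate, 811 at an adjusted p under 0.01 and 797 without the 3 libraries. Between Het backgrounds: 18 with median-of-ratios scaling, 20 with quantile normalization and 17 with the total without abundant genes. The count was 15 when centred (median -0.017), 65 with sample weights and 16 at an adjusted p under 0.01. Over all genes the calls between Het backgrounds numbered 3428 in the main fit. They were 3969 with median-of-ratios scaling, 3923 with quantile normalization and 3807 with the total without abundant genes. They were 4924 when centred, 6572 with sample weights and 1761 at an adjusted p under 0.01. Centring removes the shift the members share by its construction; other causes were not tested.

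Leaving out each replicate in turn gave 21 to 32 calls in C57, 61 to 66 in Mixed, 15 to 36 in the interaction, 2 to 9 between WT backgrounds and 21 to 45 between Het backgrounds. Isoform shares moved by less than the SD within groups under the alternatives run. No paired analysis was possible because replicate numbers follow accession order and pair no mice. TPM keeps no depth, so counting error is unknown, and low members such as Cox6b2 and Cox7a1 are the least certain.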

Other observations

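Among the rows whose name holds a hyphen and that were left out by the rule, 3 of 14 had a mean of at least 1 TPM. Ndufa12-ps, a pseudogene of Ndufa12, was between 0.412 and 1.84 TPM in every C57 mouse. In Mixed mice it was 12.6, 20.1, 10.8, 21.4 and 1.65 TPM in WT and 13.3 to 30.7 TPM in Het, so Mixed WT mouse 5 alone lay in the C57 range. Ndufa12 itself rose by 0.18 in C57 Het and by 0.52 in Mixed Het on the log2(TPM + 1) scale. Ndufs5-ps ranged from 2.89 to 8.49 TPM and Atp5l2-ps from 0.764 to 5.90 TPM over the 22 mice.

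Members varied less among C57 Het mice than in the other groups. The median coefficient of variation of their TPM was 6.32% in C57 Het, 8.40% in C57 WT, 9.71% in Mixed WT and 10.2% in Mixed Het. The same value over all genes is not given here, so whether this is particular to the members is unknown. The 3 libraries of high mitochondrial share are all in the WT groups.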
